A study of Mus musculus with 15 samples.

Results

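FGF21 was compared with control in the interscapular brown fat of mice, using the 5 arrays titled FGF21 (mice 36 to 40) and the 5 titled control (mice 31 to 35), which are 10 of the 15 arrays of the study. All mice were adult wild-type C57BL/6N males on a high-fat diet, and tissue was taken on day 5. Human FGF21 was given b.i.d. for 5 days, in doses of 1 mg/kg that made 2 mg/kg a day. For the control mice the labels name no injected substance. The other 5 mice received a single injection of 10 mg/kg of the antibody bFKB1, titled aFGFR1/KLB. They entered the fit only for its estimate of the spread and are shown beside FGF21 where a direct comparison was made. Each array measured total RNA of 1 tissue piece, with every cell type in it.

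FGF21 is a hormone of the fibroblast growth factor family that signals through the receptor FGFR1 bound to the co-receptor beta-Klotho (Klb). The activated receptor drives the RAS and ERK kinase cascade, and ERK induces phosphatases and inhibitors that feed back on the cascade. Brown fat burns fuel to make heat through the mitochondrial uncoupler UCP1, is driven by noradrenaline from sympathetic nerves through cAMP, and takes up and makes fatty acids and glucose-derived fuel for this purpose.

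Levels below are log2 of the normalised intensity of 1 probe set per gene, so a difference of 1 is a doubling, and levels are compared only within a gene. A gene was called where limma gave a Benjamini-Hochberg adjusted p under 0.05 over the 13174 genes tested, and every adjusted p below is from this test. Groups of genes are described by how many members were called, with the counts without control 34 and FGF21 36, the arrays that stood apart, where the rises or the falls differ by over 1.5 times. Over all genes tested 6.32% were called, 2.64% upwards and 3.68% downwards, and each count is to be read beside these shares. Without control 34 and FGF21 36 limma called 2138 of the 13174 genes, and without control 34 alone 2097, against 833. A higher count of a list in those fits is therefore not by itself particular to the list. Fold changes are FGF21 minus control on the log2 scale with their standard error (SE) and n = 5 mice per group. The calls were recomputed in 20 other settings, and a call of a gene held in each of those it could be fitted in unless the paragraph names a setting that ended it. Those named most often are the fit of the 10 compared arrays alone ("the 10-array fit") and the centring of each array on its ribosomal protein genes ("ribosomal centring").

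The pieces carried the markers of brown fat. All 10 brown adipocyte markers were above the filter on low values, and their mean level was 12.01 to 12.47 in controls and 12.28 to 12.98 with FGF21. Median intensities of the compared arrays were 50.9 to 52.1. Control 34 and FGF21 36 stood apart. Their median correlation with the arrays of their own group was 0.956 and 0.951, against 0.976 or more for each of the other 8, and both lay at the low end of the first principal component (-36.5 and -59.4). The mean level of 24 macrophage markers was 8.71, 7.90, 7.96, 10.36 and 8.94 in controls 31 to 35 and 10.66, 8.16, 9.16, 9.56 and 9.22 in FGF21 36 to 40, so the highest mouse of each group was the one that stood apart, and the groups overlapped. The mean level of 26 skeletal muscle markers was 8.41 to 10.25 in controls and 5.53 to 12.54 with FGF21, with FGF21 36 the highest and FGF21 38 the lowest of the 10. In tissue RNA, fewer cells of a type and less RNA per cell cannot be told apart.

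**Figure D1:**
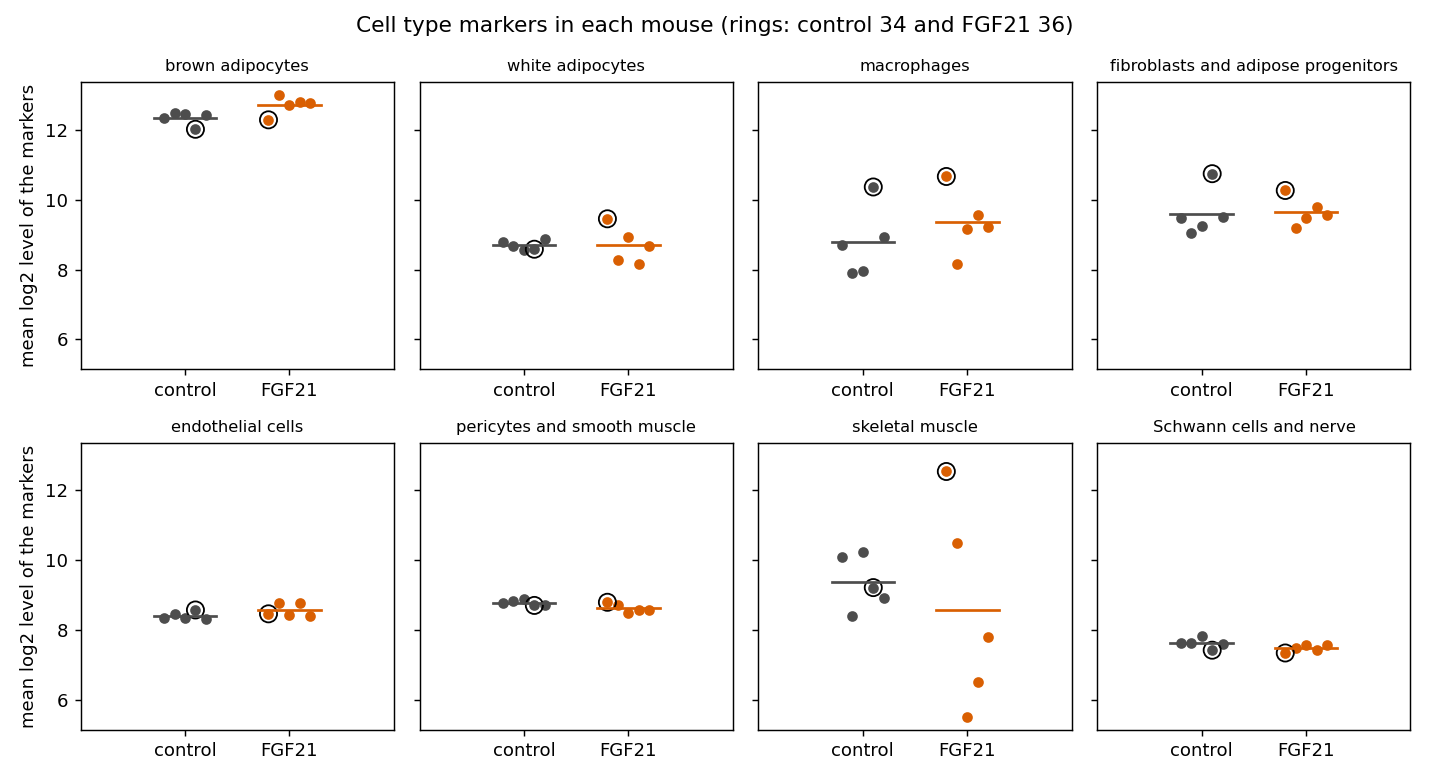
Mean log2 level of the markers of 8 cell types (vertical axis) in each of the 5 control mice (grey) and 5 FGF21 mice (orange), with lines at the group means and rings around control 34 and FGF21 36. Macrophage markers were highest in the ringed mice (10.36 and 10.66), and skeletal muscle markers ranged from 5.53 to 12.54 within the FGF21 group.

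FGF21 changed 833 of the 13174 genes tested (6.32%), 348 upwards (2.64%) and 485 downwards (3.68%). The rises were the larger in size: 41 genes rose at least 2-fold and 17 fell at least 2-fold, while the median change of the called genes was 0.48 upwards and -0.43 downwards. In 692 genes (5.25%) the 5 FGF21 values did not overlap with the 5 control values, and 518 of the called genes were among them. Of the 833 calls, 415 held in all 10 fits that left out 1 of the compared arrays and 137 held in every setting. The share of rises among the calls was 41.8%, against 65.8% of the 199 calls made with ribosomal centring. Without control 34 the count was 2097, without control 31, 32 or 33 it was 555, 463 or 513, and without FGF21 39 it was 526. The 10-array fit made 322 calls, 321 of them among the 833. Nothing in the labels says in which batch a mouse or array was handled.

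**Figure D2:**
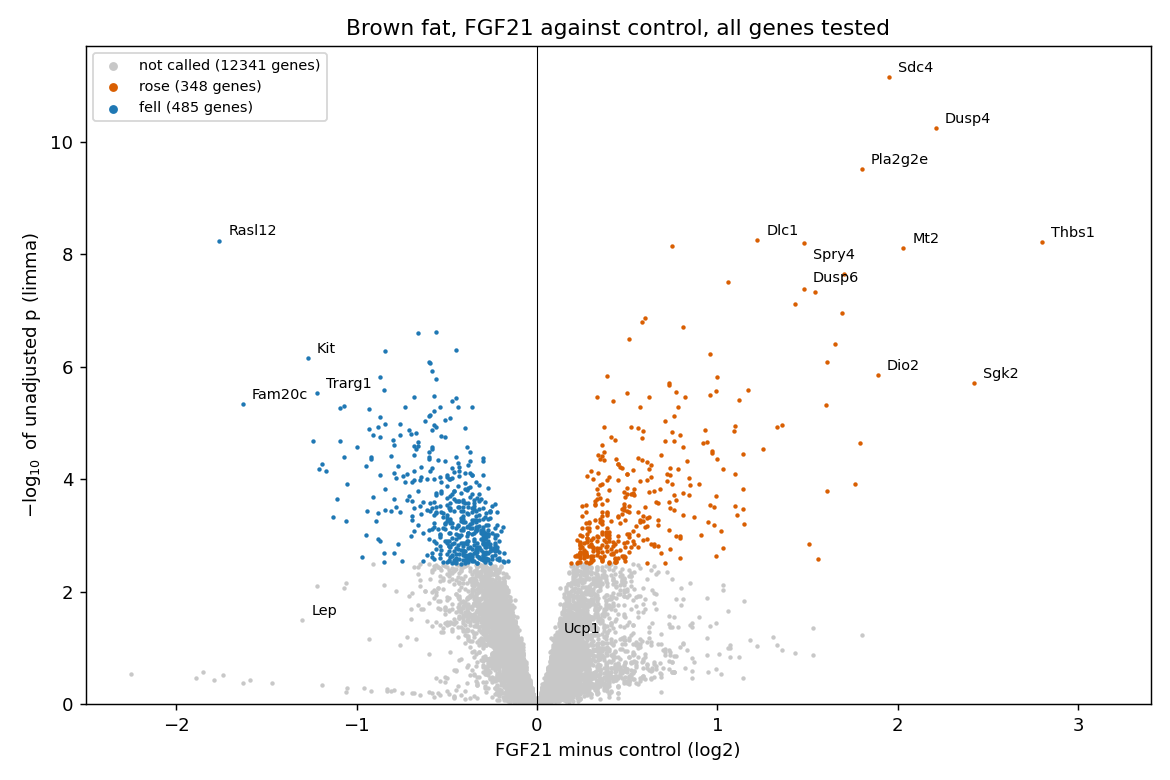
Each point is 1 of 13174 genes, with the difference FGF21 minus control (log2, horizontal axis) against the unadjusted p of limma as its negative log10 (vertical axis). The 348 genes that rose are orange, the 485 that fell are blue, and Sdc4, Dusp4 and Pla2g2e stand highest.

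Thbs1, Sgk2 and Dusp4 rose the most among the called genes without overlap. Thbs1, which encodes thrombospondin-1, a secreted matrix protein that can activate latent TGF-beta, measured 5.36, 5.05, 5.21, 5.75 and 5.25 in controls 31 to 35 and 8.94, 7.88, 8.28, 7.28 and 8.25 in FGF21 36 to 40. Every treated mouse lay above every control, and the rise was 2.80 (SE 0.23, adjusted p = 1.15e-05), or 6.98-fold. Sgk2, a kinase related to the serum and glucocorticoid-induced kinase SGK1, stood at 6.05, 6.20, 5.72, 6.53 and 7.06 in controls and 8.11, 8.93, 8.12, 9.59 and 8.91 with FGF21, again with no overlap and a rise of 2.42 (SE 0.32, adjusted p = 0.000707). Sdc4, the heparan sulphate proteoglycan syndecan-4, measured 9.61, 9.56, 9.53, 9.75 and 9.89 in controls and 11.44, 11.62, 11.54, 11.87 and 11.63 with FGF21. Its rise of 1.95 (SE 0.10) had the smallest p of all genes (adjusted p = 9.45e-08). The mice of a group differed little here, with an SD of 0.15 in controls and 0.16 with FGF21.

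Pla2g2e, a secreted phospholipase A2, went from 6.67, 6.14, 6.12, 6.11 and 6.65 to 8.06, 8.19, 8.30, 8.01 and 8.16, a rise of 1.80 (SE 0.12, adjusted p = 1.35e-06). The treated mice spanned a narrower range than the controls. Cyp4b1, a cytochrome P450, rose by 1.70 (SE 0.16, adjusted p = 2.98e-05) and Crip2, a small LIM-domain protein, by 1.69 (SE 0.18, adjusted p = 9.63e-05). Depp1, a FOXO-induced gene linked to autophagy, rose by 1.79. Prg4, the lubricating proteoglycan lubricin, rose by 1.76, and its lowest treated mouse (6.90) lay close to its highest control (6.83). Net1, an exchange factor for the GTPase RhoA, and Dlc1, an inhibitor of RhoA, both rose, by 1.65 and 1.22. Egln3, an oxygen-dependent prolyl hydroxylase, and Itih4, a secreted inhibitor heavy chain, each rose by 1.61. Completing the 15 largest rises are Dusp4, Mt2, Dio2 and Elovl3, which are described with their groups.

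**Figure D3:**
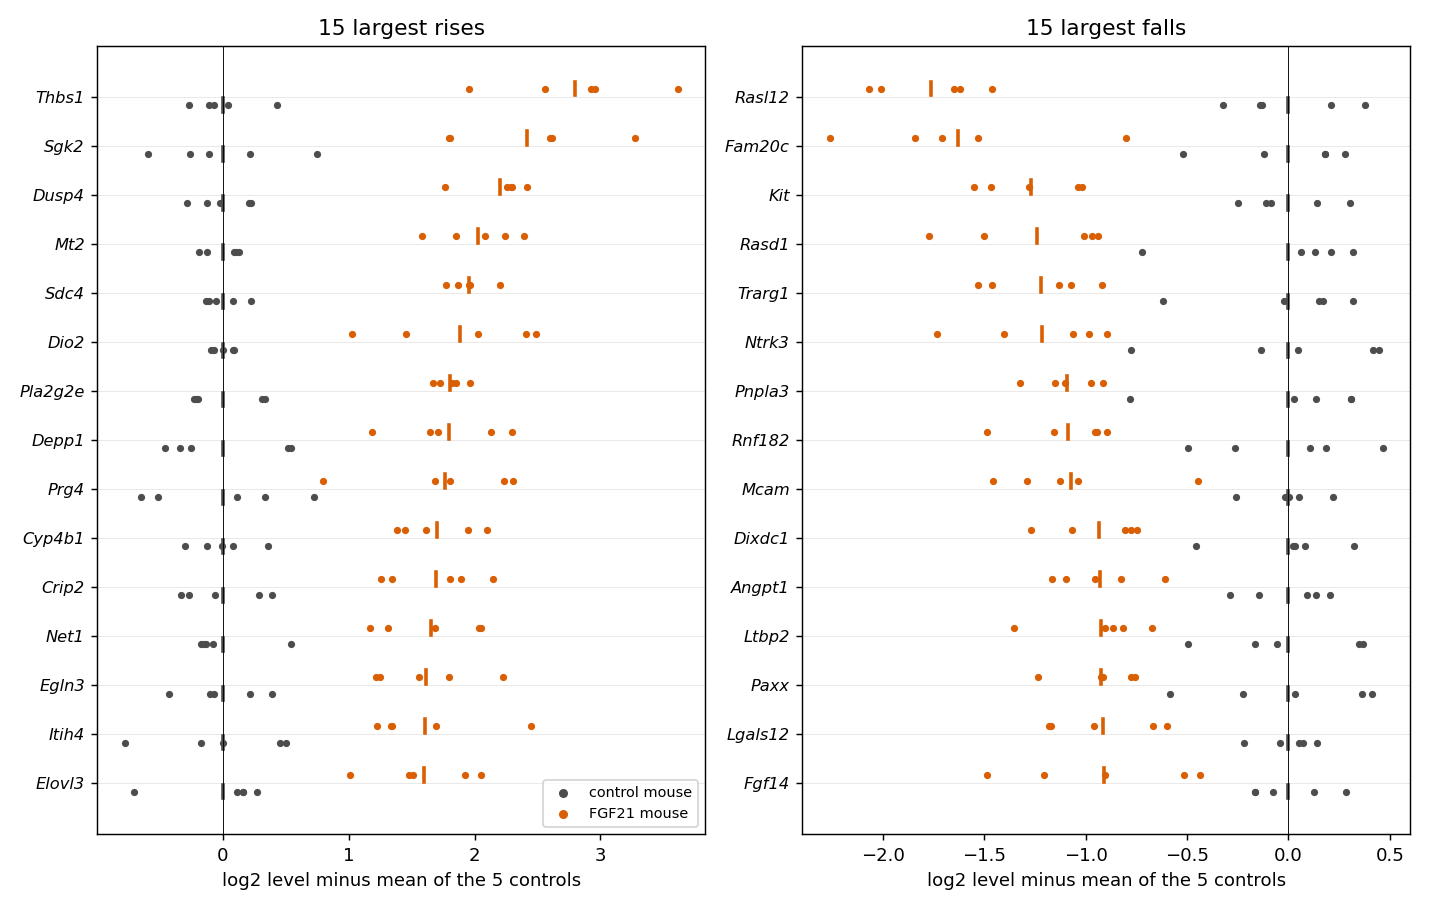
Levels of the 15 genes with the largest rises (left) and the 15 with the largest falls (right) among called genes whose groups did not overlap, as log2 level minus the mean of the 5 controls, with 1 point per mouse (grey control, orange FGF21) and a bar at each group mean. Thbs1 and Rasl12, at 2.80 and -1.76, lead the panels, and Prg4 and Mcam show a treated mouse close to the controls.

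Rasl12, Fam20c and Kit fell the most among the called genes without overlap. Rasl12, a Ras-like GTPase, measured 9.96, 10.30, 10.47, 9.77 and 9.95 in controls 31 to 35 and 8.02, 8.08, 8.44, 8.47 and 8.63 in FGF21 36 to 40, and fell by 1.76 (SE 0.15, adjusted p = 1.15e-05). Rasd1, another Ras-family GTPase, fell by 1.24 (SE 0.20, adjusted p = 0.00253). Fam20c, a kinase that phosphorylates secreted proteins, fell by 1.63 (SE 0.23, adjusted p = 0.00111), from 10.19, 10.19, 10.29, 9.49 and 9.89 to 9.21, 7.75, 8.48, 8.17 and 8.30. Its treated mice were spread more widely than its controls. Kit, the receptor of stem cell factor, stood at 6.06, 6.45, 6.22, 6.61 and 6.20 in controls and 5.27, 4.76, 5.03, 5.29 and 4.84 with FGF21, a fall of 1.27 (SE 0.15, adjusted p = 0.00036). Kit was also the called member of the 11 tested markers of neutrophils and mast cells, of which none rose. The share of that list called was 9.09%, against 6.32% of all genes.

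The other genes of the 15 largest falls had varied roles. Angpt1, the ligand of the endothelial receptor Tie2, fell by 0.93, and Mcam, an adhesion molecule of pericytes and endothelium, fell by 1.07, with FGF21 36 (8.16) nearest to the lowest control (8.35). Ntrk3, the receptor of neurotrophin-3, fell by 1.21. Fgf14, an intracellular FGF-like regulator of sodium channels, fell by 0.91. Dixdc1, a Wnt pathway protein, fell by 0.93, and Lgals12, a galectin found on fat cell lipid droplets, fell by 0.91. Rnf182, a ubiquitin ligase, fell by 1.09. Ltbp2, a matrix protein of the latent TGF-beta binding family, and Paxx, a DNA end-joining factor, each fell by 0.92, and their calls ended with ribosomal centring. Trarg1 and Pnpla3, also among the 15, are described with the insulin and fatty acid genes.

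The list of the hormone's receptor system had 1 call, in an adaptor gene. Among 19 tested FGF ligands, receptors, klothos and adaptors of receptor signalling, none rose. Gab1, a docking protein of receptor tyrosine kinases, fell by 0.29 (SE 0.08, adjusted p = 0.0482). No ligand, receptor or klotho of the list was called, and Fgf14, described above, is not in it. The median change was -0.07, against -0.02 over all genes tested. This share of calls (5.26%) is near the 6.32% of all genes. Without control 34 and FGF21 36 none rose and 4 fell. Klb measured 9.02, 9.18, 9.38, 8.98 and 9.22 in controls 31 to 35 and 8.41, 8.63, 8.91, 8.97 and 8.83 in FGF21 36 to 40. All treated mice lay below all controls, by a margin of 8.97 against 8.98, and the difference of -0.40 (SE 0.12) did not pass (adjusted p = 0.0529), although it did in 6 of the 20 other settings. Fgfr1 differed by -0.07 (SE 0.12, adjusted p = 0.796) and the endogenous mouse Fgf21 by 0.05 (SE 0.22, adjusted p = 0.933). For Fgf21, FGF21 38 stood at 6.54 and all other compared mice at 5.35 to 6.02. The call of Gab1 ended in the fits without control 31, 32 or 33 or FGF21 37, 38, 39 or 40 (adjusted p = 0.0742 to 0.13), in the 10-array fit, with ribosomal centring, without the filter and with the macrophage markers as a covariate.

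Several feedback genes of the ERK cascade rose. Of 21 tested phosphatases and inhibitors, 5 rose and 2 fell (33.33% called, against 6.32% of all genes), with a median change of 0.15. Without control 34, 8 rose. Dusp4, a nuclear phosphatase that switches off ERK, measured 8.40, 7.91, 8.07, 8.17 and 8.42 in controls 31 to 35 and 9.96, 10.48, 10.45, 10.61 and 10.49 in FGF21 36 to 40, with the groups well separated, a rise of 2.21 (SE 0.13, adjusted p = 3.81e-07). Dusp6, the cytoplasmic ERK phosphatase, stood at 9.48, 9.20, 9.19, 9.65 and 9.88 in controls and 10.53, 11.07, 11.11, 10.96 and 11.15 with FGF21, a rise of 1.48 (SE 0.14, adjusted p = 4.63e-05). Spry4, a Sprouty inhibitor of RAS activation, went from 6.74, 6.85, 6.97, 6.93 and 7.07 to 8.14, 8.22, 8.40, 8.78 and 8.41, also a rise of 1.48 (SE 0.12, adjusted p = 1.15e-05). Neither gene had overlapping groups. Spred2 and Spred1, Sprouty-related inhibitors, rose by 1.06 and 0.76. The 4 other probe sets of Spred2 changed by 0.02 to 0.68, and 2 of them were called. For Spred1, control 34 (9.02) lay among the treated mice, and its call ended in the 10-array fit. Dusp16, a phosphatase directed mainly at JNK and p38, fell by 0.50, and Dusp8, named after its values were seen, fell by 0.55. The call of Dusp16 ended with ribosomal centring, and that of Dusp8 held in 14 of the 20 settings.

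In a list written as transcription factors and effectors downstream of ERK, 5 of 18 tested members rose, Spred1 among them, and Phlda3 fell. This was 33.33% called, against 6.32% of all genes, with a median change of 0.31. Whether ERK acts on each member was not tested. The median was 0.46 without control 34, 0.20 without FGF21 36, 0.34 without both and 0.14 with the macrophage covariate. The mean level of this list was 7.86 in control 34 and 7.27 to 7.40 in the other controls, and 8.09 in FGF21 36 and 7.60 to 7.82 in the other treated mice, so it too was highest in the mice with the highest macrophage marker levels. Etv5, an ETS factor induced by FGF signals, measured 5.54, 5.44, 5.24, 6.35 and 5.38 in controls and 7.27, 6.52, 6.81, 6.65 and 6.38 with FGF21; control 34 stood just under the lowest treated mouse, and the rise was 1.14 (SE 0.19, adjusted p = 0.00367). Fosl1 and Fosl2, partners of JUN in AP-1, rose by 0.99 (SE 0.20, adjusted p = 0.00947) and 0.54 (SE 0.11, adjusted p = 0.00826). Maff, a small MAF factor, rose by 0.73. Phlda3, an inhibitor of AKT, went from 12.47, 12.49, 12.56, 11.77 and 12.34 to 11.36, 11.54, 11.70, 11.28 and 11.54, a fall of 0.84 (SE 0.13, adjusted p = 0.00181). None of the 19 tested immediate early genes, the first to respond to a stimulus, was called, although their median was 0.29 and 15 were positive; Fos, at 1.01, had an SE of 0.63. At an unadjusted p under 0.05, 6 of the immediate early genes passed, 4 of them upwards, and without control 34 limma called 8, of which 6 rose (4 up and 2 down without FGF21 36 as well). The 10-array fit ended the calls of Fosl1 and Maff, ribosomal centring that of Maff, and the mean of all probe sets that of Fosl2.

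**Figure D4:**
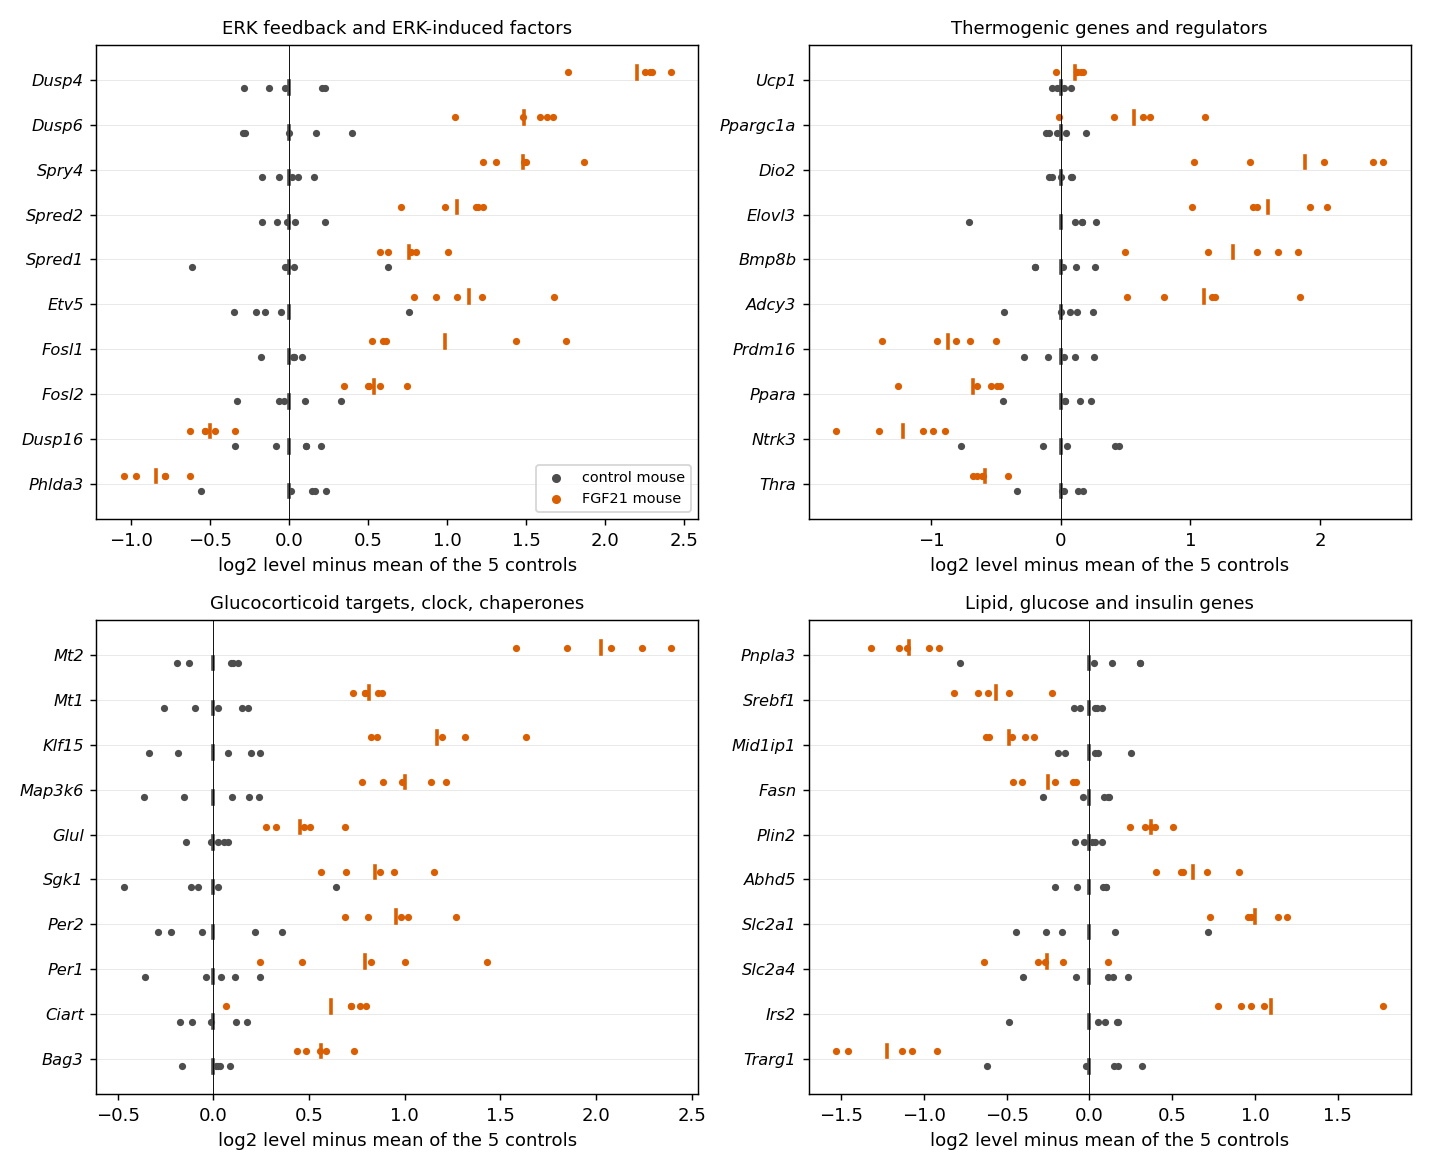
Levels of 40 genes in 4 groups as log2 level minus the mean of the 5 controls (horizontal axis), with 1 point per mouse (grey control, orange FGF21) and a bar at each group mean. Dusp4, Mt2, Dio2 and Irs2 lay apart from the controls in every treated mouse, while Ucp1, Ppargc1a, Fasn and Slc2a4 overlapped with them.

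Thermogenic genes changed in both directions. Of 33 tested, 3 rose and 6 fell (27.27% called, against 6.32% of all genes), with a median of -0.01. Without control 34 and FGF21 36, 6 rose and 6 fell, and without either one alone 5 rose and 6 fell. Ucp1 measured 14.58, 14.61, 14.52, 14.56 and 14.67 in controls 31 to 35 and 14.55, 14.71, 14.76, 14.71 and 14.74 in FGF21 36 to 40. Its difference of 0.10 (SE 0.05) did not pass (adjusted p = 0.29). Ucp1 ranked 8 by mean level among the genes tested, and whether signal saturation limited its difference was not tested. Ppargc1a, the coactivator that drives mitochondrial genes, stood at 10.03, 10.34, 10.06, 10.19 and 10.12 in controls and 10.13, 10.84, 10.56, 11.26 and 10.78 with FGF21. Only FGF21 36 lay within the controls, and the difference of 0.57 (SE 0.17) missed the threshold (adjusted p = 0.0559), passing without FGF21 36 at 0.71 (adjusted p = 0.00695). Dio2, the deiodinase that turns thyroxine into active thyroid hormone, measured 9.10, 9.26, 9.17, 9.08 and 9.25 in controls and 10.20, 11.66, 10.63, 11.58 and 11.20 with FGF21. Its rise of 1.89 (SE 0.24, adjusted p = 0.000594) came with an SD of 0.63 among treated mice against 0.08 among controls.

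Elovl3, which makes very long chain fatty acids in cold-activated brown fat, rose by 1.60 (SE 0.23, adjusted p = 0.00111), with control 34 at 9.54 and the other controls at 10.36 to 10.52. It was the called member of the 4 tested elongases, whose median was 0.34 and of which 2 rose without control 34. Bmp8b, a secreted factor that sensitises brown fat to noradrenaline, went from 6.97, 6.51, 6.72, 6.51 and 6.82 to 7.20, 8.38, 8.54, 7.84 and 8.22, a rise of 1.33 (SE 0.21, adjusted p = 0.00189) in which FGF21 36 was the lowest treated mouse. Against these, Prdm16, a transcriptional regulator of brown fat identity, measured 8.89, 9.12, 8.98, 8.58 and 8.77 in controls and 7.91, 8.17, 7.49, 8.37 and 8.06 with FGF21, and fell by 0.87 (SE 0.14, adjusted p = 0.00234). Ppara, the nuclear receptor of fatty acid oxidation genes, fell by 0.68 and Plin5, a lipid droplet protein at mitochondria, by 0.42. Ebf3 and Cebpa, transcription factors of fat cells named after their values were seen, fell by 0.64 and 0.46. Cidea, Cox8b and Cox7a1, markers of brown fat cells, differed by -0.01, -0.08 and 0.00; of the 10 brown adipocyte markers 2 rose and 1 fell, with a median of 0.04. The 10-array fit and ribosomal centring ended the calls of Ppara, Plin5, Ebf3 and Cebpa, and that of Plin5 also ended without control 31, 32, 33 or 35 (adjusted p = 0.0534 to 0.0652).

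Adrenergic and cAMP genes showed 4 rises and 1 fall among 24 tested, with a median of -0.01 (5 and 3 without control 34 and FGF21 36). Adcy3, an adenylyl cyclase that makes cAMP, measured 10.22, 10.40, 10.15, 9.71 and 10.28 in controls 31 to 35 and 10.66 (FGF21 36) or more in every treated mouse, and rose by 1.10 (SE 0.23, adjusted p = 0.0123). Adcy4, another cyclase, rose by 0.35. Pde3b, which breaks cAMP down, rose by 0.40, and Rgs2, which limits G protein signalling, by 0.91. Akap1, an anchor of protein kinase A at mitochondria, fell by 0.58 (SE 0.09, adjusted p = 0.00196). Thyroid hormone genes included, beside Dio2, falls of the receptor gene Thra by 0.59 (SE 0.09, adjusted p = 0.0014) and of Thrsp, a thyroid-responsive lipogenic gene, by 0.32. Of the 9 tested, 1 rose and 2 fell, and their median was -0.17 (2 and 4 without control 34 and FGF21 36). Ribosomal centring ended the calls of Adcy3, Adcy4, Akap1, Thra, Pde3b and Thrsp, and the 10-array fit those of Pde3b, Rgs2 and Thrsp. The call of Pde3b also ended without control 31 or 33 or FGF21 37, 38, 39 or 40 (adjusted p = 0.0516 to 0.0751), that of Rgs2 without control 31, 32 or 33 or FGF21 37, 39 or 40 (0.0514 to 0.0722), and that of Thrsp without control 31, 32, 33 or 35 or FGF21 36, 39 or 40 (0.0514 to 0.0917) and with the mean of all probe sets.

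Fatty acid synthesis genes moved downwards where they moved. Of 25 tested, none rose and 6 fell, with a median of -0.26, and 18 were negative. Without control 34, or without both arrays that stood apart, 1 rose and 11 fell, and without FGF21 36 alone 3 fell. Pnpla3, a lipogenic target gene that encodes a lipid droplet enzyme, measured 9.86, 9.69, 9.86, 8.77 and 9.58 in controls 31 to 35 and 8.23, 8.64, 8.58, 8.40 and 8.45 in FGF21 36 to 40. Control 34 lay nearest to the treated mice, and the fall was 1.09 (SE 0.18, adjusted p = 0.00253). Srebf1, the transcription factor that drives lipogenesis, stood at 11.48, 11.31, 11.35, 11.44 and 11.45 in controls and 10.73, 10.92, 10.59, 11.18 and 10.79 with FGF21, a fall of 0.56 (SE 0.11, adjusted p = 0.00892). Mid1ip1, an activator of acetyl-CoA carboxylase, fell by 0.49 (SE 0.09, adjusted p = 0.0063). Acss2, which makes acetyl-CoA from acetate, and Acaca, acetyl-CoA carboxylase itself, fell by 0.87 and 0.63, and their groups overlapped. Fasn, fatty acid synthase, differed by -0.26 (SE 0.09) and did not pass (adjusted p = 0.122). Ribosomal centring ended all of these calls but that of Pnpla3, and the 10-array fit those of Acss2 and Acaca. Acss2 was also lost without control 31, 32 or 33 or FGF21 36 or 39 (adjusted p = 0.0538 to 0.0844), and Acaca without any 1 array but control 34 and FGF21 38 (0.0502 to 0.126), without the filter and with the mean of all probe sets.

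Cholesterol genes had no rise and 2 falls among 25 tested, with a median of -0.03; without control 34 and FGF21 36 there were 1 rise and 7 falls. Dhcr7, the last enzyme of cholesterol synthesis, fell by 0.67 (SE 0.11, adjusted p = 0.00213) and Fdft1, squalene synthase, by 0.79 (SE 0.16, adjusted p = 0.0106). In neither did the groups overlap. Among 26 genes of triglyceride and phospholipid synthesis, 2 rose and 1 fell (3 and 2 without those arrays), with a median of 0.00: Chka, choline kinase, rose by 0.62 (SE 0.09, adjusted p = 0.00092), Gpam, the first enzyme of glycerolipid synthesis, rose by 0.40, and Lpin1, a phosphatidate phosphatase, fell by 0.48. The calls of Dhcr7, Fdft1, Gpam and Lpin1 ended with ribosomal centring and those of Fdft1 and Gpam in the 10-array fit; that of Gpam also ended without control 33 or FGF21 37, 39 or 40 (adjusted p = 0.0632 to 0.0701).

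Genes of lipid droplets and lipolysis split, with 3 rises and 2 falls among 20 and a median of 0.05 (4 and 4 without control 34 and FGF21 36). Abhd5, the coactivator of the triglyceride lipase ATGL, measured 10.12, 9.81, 10.10, 9.94 and 10.12 in controls and 10.42, 10.92, 10.58, 10.73 and 10.57 with FGF21, a rise of 0.63 (SE 0.12, adjusted p = 0.00603). Plin2, a coat protein of lipid droplets, rose by 0.37 (SE 0.06, adjusted p = 0.00189), and Plin3, a related coat protein, fell by 0.48. Acot1, a thioesterase that frees fatty acids from CoA, rose by 0.92 (SE 0.15, adjusted p = 0.00271), with FGF21 37 at 7.39 and the other treated mice at 6.71 to 6.75. Of 20 genes of the lipoprotein lipase axis and fatty acid uptake, 2 rose and 1 fell, with a median of 0.09 (4 and 2 without those arrays). Angptl8, an inhibitor of lipoprotein lipase, fell by 1.05 (SE 0.20, adjusted p = 0.00717), with control 34 (8.88) among the treated mice. Lpl itself rose by 0.19 and Mfsd2a, a lysophospholipid transporter, by 1.51; in FGF21 36, Mfsd2a stood at 4.91, below all controls, and in the other treated mice at 6.76 to 7.88. Ribosomal centring ended the calls of Abhd5, Plin2, Plin3, Angptl8, Lpl and Mfsd2a. The 10-array fit ended those of Mfsd2a and Lpl. Mfsd2a was also lost without control 31, 32 or 33 or FGF21 37, 38, 39 or 40 (adjusted p = 0.0608 to 0.0717), and Lpl without any 1 array but control 34 (0.0532 to 0.121), without the filter, after another quantile normalisation and with the macrophage covariate.

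Mitochondrial oxidation, peroxisomes and energy carriers were examined as separate lists. Among 22 genes of mitochondrial fatty acid oxidation 1 was called (4.55%, against 6.32% of all genes), with a median of 0.03. It was Cpt1a, the carnitine acyltransferase that commits fatty acids to entry into mitochondria, which rose by 0.69. Control 34 (8.83) and FGF21 36 (9.07) were its highest mice, and the call ended without any 1 array but control 34 (adjusted p = 0.0532 to 0.103) and in the 10-array fit. Of 27 peroxisomal genes 3 rose and 1 fell, with a median of 0.04 (4 and 3 without control 34 and FGF21 36), a share of 14.81% called against 6.32% of all genes: the thiolase Acaa1b rose by 0.74 (SE 0.14, adjusted p = 0.00579), the thioesterases Acot4 and Acot8 by 1.03 and 0.33, and the assembly factor Pex2 fell by 0.31. Not one of 30 genes of the TCA cycle and pyruvate metabolism or of 70 of the respiratory chain and ATP synthase was called, and their medians were -0.05 and -0.07. At an unadjusted p under 0.05, 1 and 6 of them passed, all downwards, and without control 34 limma called 3 falls in each (3 and 1 without FGF21 36 as well). Among 34 energy carriers of mitochondria and the creatine system 1 rose and 2 fell, with a median of 0.04 (6 and 5 without control 34 and FGF21 36). This share of calls (8.82%) is near the 6.32% of all genes. Ucp3, an uncoupler-related carrier, went from 9.51, 10.05, 9.92, 8.76 and 9.52 to 8.17, 8.83, 8.42, 7.84 and 8.53, a fall of 1.19 (SE 0.21, adjusted p = 0.00449) in which control 34 lay below FGF21 37. Slc25a34, an orphan mitochondrial carrier, rose by 0.96, and Slc25a23, an ATP and phosphate carrier, fell by 0.54. Ak4, a mitochondrial adenylate kinase, measured 6.17, 6.29, 5.97, 5.95 and 5.95 in controls 31 to 35 and 7.22, 8.09, 7.70, 7.43 and 7.59 in FGF21 36 to 40. It rose by 1.54 (SE 0.15, adjusted p = 4.86e-05) and was the called member of 11 adenylate kinases and carbonic anhydrases, whose median was 0.04 and of which 2 rose without control 34 and FGF21 36. The share of that list called was 9.09%, against 6.32% of all genes. The 3 other probe sets of Ak4 changed by -0.06 to 1.27, and 1 of them was called. Ribosomal centring ended the calls of Acaa1b, Acot4, Acot8, Pex2, Slc25a34 and Slc25a23, and the 10-array fit those of Acot8, Pex2, Slc25a34 and Slc25a23. Acot8 was also lost after another quantile normalisation and without control 33 or 35 or FGF21 37, 39 or 40 (adjusted p = 0.0533 to 0.0766), Pex2 with the mean of all probe sets and without control 31, 32 or 33 (0.0546 to 0.0703), and Slc25a23 without control 31, 32 or 33 or FGF21 39 (0.0581 to 0.0701).

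Glucose handling genes divided between transporters. Of 34 tested, 2 rose and 4 fell, with a median of -0.02 (4 and 6 without control 34 and FGF21 36). Slc2a1, the basal glucose transporter GLUT1, measured 7.46, 7.04, 6.86, 8.02 and 7.14 in controls 31 to 35 and 8.44, 8.03, 8.50, 8.26 and 8.28 in FGF21 36 to 40. Control 34 lay just under the lowest treated mouse, and the rise was 1.00 (SE 0.17, adjusted p = 0.00398). Slc2a4, the insulin-regulated transporter GLUT4, differed by -0.26 (SE 0.13, adjusted p = 0.307), and Slc2a5, the fructose transporter GLUT5, fell by 1.06. Pygb, a glycogen phosphorylase, fell by 0.66 (SE 0.11, adjusted p = 0.00261), Ppp1r3d, a glycogen-targeting subunit, by 0.65, and Slc16a1, the lactate transporter MCT1, by 0.47. Hk1, a hexokinase, rose by 0.36. Ribosomal centring ended the calls of Slc2a5, Pygb, Ppp1r3d, Slc16a1 and Hk1, and the 10-array fit those of Slc2a5, Ppp1r3d and Hk1. Without control 33 the adjusted p of Slc2a5 was 0.0513. Hk1 was also lost after another quantile normalisation, with the mean of all probe sets and without control 32, 33 or 35 or FGF21 37, 38, 39 or 40 (adjusted p = 0.0606 to 0.0965).

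Insulin signalling and GLUT4 traffic genes showed 4 rises and 5 falls among 35 tested, with a median of 0.03 (8 and 8 without control 34 and FGF21 36). Irs2, an adaptor of the insulin receptor, measured 6.64, 7.18, 7.22, 7.29 and 7.30 in controls and 8.04, 8.18, 7.90, 8.90 and 8.10 with FGF21, a rise of 1.10 (SE 0.17, adjusted p = 0.00187). Trarg1, which regulates GLUT4 traffic, stood at 12.82, 12.80, 12.97, 12.03 and 12.63 in controls and 11.58, 11.12, 11.73, 11.19 and 11.52 with FGF21, a fall of 1.22 (SE 0.17, adjusted p = 0.000881). The groups did not overlap in either gene. Tbc1d4 and Rhoq, which act on GLUT4 vesicles, fell by 0.42 and 0.36. Sgk1 and Sgk2 also belong to this list. Pdpk1, Pik3r1 and Akt2, kinase pathway genes named after their values were seen, changed by 0.33, -0.54 and -0.39. Among 26 genes of branched-chain amino acid catabolism 2 rose and none fell (4 and 2 without those arrays), with a median of -0.05: Slc3a2, the heavy chain of amino acid exchangers, by 0.73 (SE 0.10, adjusted p = 0.000707) and Bcat2, the mitochondrial transaminase, by 0.44. The share of this list called (7.69%) is near the 6.32% of all genes. Ribosomal centring ended the calls of Tbc1d4, Rhoq, Pdpk1, Pik3r1, Akt2 and Bcat2; those of Pdpk1, Pik3r1 and Akt2 held in 16, 14 and 10 of the 20 settings. That of Bcat2 also ended in the 10-array fit, after another quantile normalisation and without control 32 or 33 or FGF21 37, 39 or 40 (adjusted p = 0.0621 to 0.0944).

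**Figure D5:**
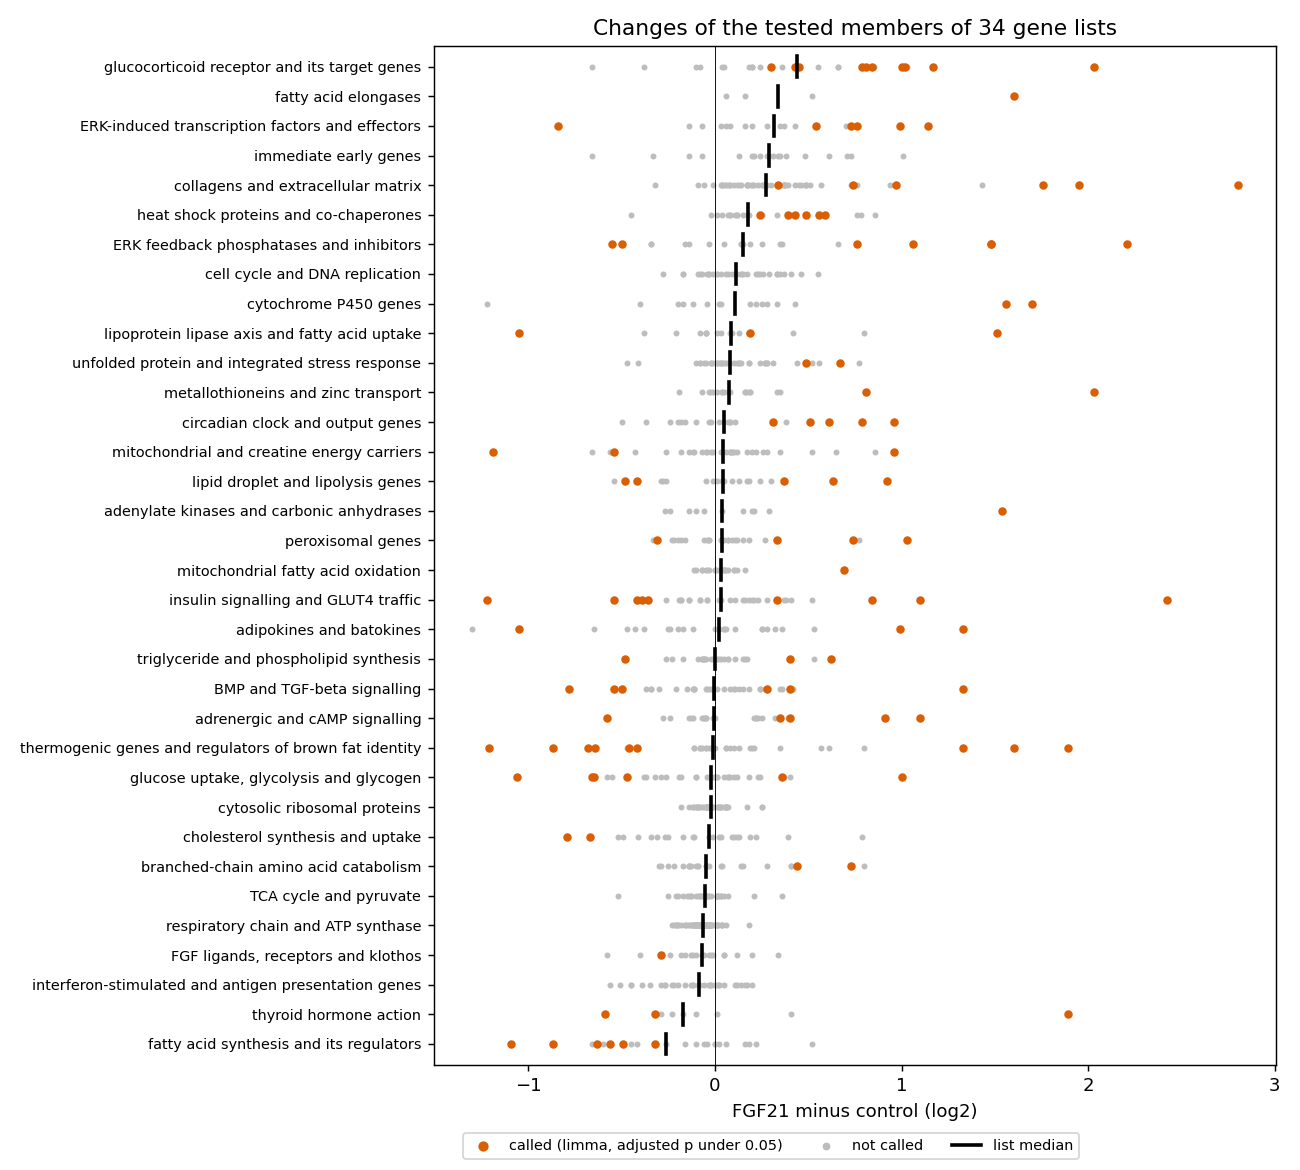
Difference FGF21 minus control (log2, horizontal axis) of each tested member of 34 gene lists, 1 list per line, with called genes in orange, other genes in grey and a black bar at the list median. The glucocorticoid list has the highest median (0.44) and the fatty acid synthesis list the lowest (-0.26).

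Of 26 tested genes of the glucocorticoid receptor and its targets, 10 rose and none fell (38.46% called, against 6.32% of all genes). The median was 0.44, and 22 were positive. Uncalled members, named after their values were seen, included Fkbp5 (0.85), Tsc22d3 (0.2), Zbtb16 (0.18) and Pdk4 (0.05). Ddit4 (-0.66) and Angptl4 (-0.38), also uncalled, were the lowest of the 4 negative members. Without control 34 and FGF21 36, 1 fell. Mt2, a metallothionein that binds zinc and is induced by metals and by glucocorticoids, measured 9.66, 9.89, 9.92, 9.60 and 9.88 in controls 31 to 35 and 12.18, 11.37, 12.03, 11.64 and 11.87 in FGF21 36 to 40, a rise of 2.03 (SE 0.17, adjusted p = 1.15e-05), or 4.08-fold. Mt1 went from 12.53, 12.78, 12.81, 12.37 and 12.65 to 13.42, 13.42, 13.49, 13.36 and 13.51, a rise of 0.81 (SE 0.09, adjusted p = 0.000144). Both genes kept the groups apart, and they were the called members of 20 metallothioneins and zinc transporters, whose median was 0.07 and of which 4 rose without control 34 and FGF21 36. Klf15, a transcription factor of amino acid and lipid genes, rose by 1.17 (SE 0.16, adjusted p = 0.000868), from 8.05, 7.67, 7.93, 7.52 and 8.10 to 8.68, 9.49, 8.71, 9.05 and 9.17. Map3k6, a stress kinase, rose by 1.00 (SE 0.13, adjusted p = 0.000594), Sgk1 by 0.84 (SE 0.17, adjusted p = 0.00945) and Glul, glutamine synthetase, by 0.45 (SE 0.09, adjusted p = 0.0063). Nr3c1, the receptor itself, Klf9 and Fam107a, named after their values were seen, rose by 0.30, 0.43 and 1.02; these calls held in 9, 13 and 13 of the 20 settings. Per1 also belongs to this list, and the settings that ended its call, ribosomal centring among them, are given with the clock genes. The call of Glul ended with ribosomal centring, under which 5 members of the list rose and none fell.

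The promoters of 3 of these responding genes are shown because a motif searched in them was found, for metal-responsive transcription in Mt1 and Mt2 and for cAMP-responsive transcription in Dio2. Sequences are from RefSeq (GRCm38.p6), run 5′ to 3′ on the gene's strand from 250 bases before to 30 bases after an annotated start, and have the motif in capitals. The metal response element core was searched as TGCACNC or TGCGCNC on both strands and was present in 25.7% of 32841 promoter windows of 300 bases, and in at least 1 window of 39.6% of the 10582 tested genes with a window. Mt1 (chr8:94178839-94179118, + strand) held 3 matches and Mt2 (chr8:94172368-94172647, + strand) held 4. The cAMP response element TGACGTCA, a palindrome, was present in 1.8% of the windows and in 3.4% of those tested genes, and Dio2 (chr12:90739009-90739288, - strand) held 1 match, which began at position -95 from the start. These letters are not in the windows of Ppargc1a, Per1 and Bmp8b, where they were also searched. On both strands, the ETS site was searched only as the exact letters CCGGAAG (8.9% of windows, 18.4% of tested genes). These letters were not in the windows of Dusp6, Spred1, Spred2, Etv5, Fosl2 and Maff. The CArG box (1.6% of both) was not in these windows or in that of Sdc4, and the sterol element TCACNCCAC (1.2% and 1.4%) was not in those of Pnpla3, Mid1ip1, Srebf1, Acss2, Acaca, Dhcr7 and Thrsp. Dusp4, Fosl1, Thbs1, Per2, Elovl3 and Fdft1 had no window and could not be searched. A match is a description of letters, and binding was not measured.
Mt1: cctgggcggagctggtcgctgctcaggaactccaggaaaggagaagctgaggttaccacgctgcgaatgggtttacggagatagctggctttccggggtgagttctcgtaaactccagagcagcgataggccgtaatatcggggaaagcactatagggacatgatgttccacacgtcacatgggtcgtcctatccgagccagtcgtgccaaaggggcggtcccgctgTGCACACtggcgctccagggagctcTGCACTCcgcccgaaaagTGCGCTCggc
Mt2: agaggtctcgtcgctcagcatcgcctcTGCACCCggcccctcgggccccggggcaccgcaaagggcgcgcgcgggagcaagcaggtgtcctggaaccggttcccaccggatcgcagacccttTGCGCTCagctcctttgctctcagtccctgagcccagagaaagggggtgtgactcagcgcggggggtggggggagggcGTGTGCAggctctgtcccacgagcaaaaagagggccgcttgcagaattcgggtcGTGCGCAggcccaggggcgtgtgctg
Dio2: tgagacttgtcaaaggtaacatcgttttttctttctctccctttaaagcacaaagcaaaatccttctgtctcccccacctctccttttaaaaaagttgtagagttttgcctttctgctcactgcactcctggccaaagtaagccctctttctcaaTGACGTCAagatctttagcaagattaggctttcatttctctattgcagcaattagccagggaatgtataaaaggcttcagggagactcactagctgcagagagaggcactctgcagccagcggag

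Of 21 tested clock genes, 5 rose and none fell (23.81% called, against 6.32% of all genes), with a median of 0.05. Without control 34 and FGF21 36, 5 rose and 2 fell, and without control 34 alone 5 rose and 3 fell. At an unadjusted p under 0.05 in limma, 6 passed upwards and 3 downwards. Per2, a repressor in the core clock loop, measured 6.79, 7.37, 6.95, 6.72 and 7.23 in controls 31 to 35 and 7.70, 7.82, 7.99, 8.28 and 8.03 in FGF21 36 to 40. All treated mice lay above all controls, and the rise was 0.96 (SE 0.13, adjusted p = 0.00092). Per1, its paralogue, rose by 0.79 (SE 0.19, adjusted p = 0.0265), Ciart, another repressor of the loop, by 0.61 (SE 0.14, adjusted p = 0.0161), Nfil3, a clock output repressor, by 0.51, and Cry1, the partner of PER proteins, by 0.31. In Ciart, FGF21 36 (6.82) lay among the controls and the other treated mice at 7.47 to 7.55. The labels give no hour of tissue collection. The 10-array fit and ribosomal centring ended the calls of Per1, Ciart, Nfil3 and Cry1. Per1 was also lost without control 31, 32 or 33 or FGF21 38, 39 or 40 (adjusted p = 0.0557 to 0.0709), Cry1 without control 32, 33 or 35 or FGF21 38 or 39 (0.0535 to 0.0968), and Nfil3 after another quantile normalisation and without control 32 or FGF21 38, 39 or 40 (0.0547 to 0.0698).

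The promoter of Ciart is shown for its E-boxes, the motif CACGTG through which the core clock activators act. The E-box, a palindrome, was present in 7.2% of the 32841 windows and in 11.5% of the tested genes with a window. Ciart (chr3:95882199-95882478, - strand, GRCm38.p6, RefSeq) held 3 matches, the first at position -116 and the last at -44 from the start, marked in capitals over 250 bases before to 30 after it. Of the other called clock genes searched, Cry1 held 1 match, Per1 held 1 in 1 of its windows and none in another, and these letters are not in the window of Nfil3.
Ciart: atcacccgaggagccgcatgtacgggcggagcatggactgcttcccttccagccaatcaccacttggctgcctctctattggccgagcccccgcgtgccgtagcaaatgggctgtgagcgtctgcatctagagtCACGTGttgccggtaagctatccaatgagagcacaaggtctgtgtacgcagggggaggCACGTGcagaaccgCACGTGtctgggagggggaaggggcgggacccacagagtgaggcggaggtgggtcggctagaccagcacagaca

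Chaperone genes rose in 6 of 24 tested cases and none fell, with a median of 0.17 and 22 positive members; without control 34 and FGF21 36 there were 11 rises. Bag3, a co-chaperone of HSP70 in protein quality control, measured 9.79, 9.78, 9.60, 9.80 and 9.85 in controls 31 to 35 and 10.50, 10.35, 10.32, 10.25 and 10.20 in FGF21 36 to 40, a rise of 0.56 (SE 0.09, adjusted p = 0.00189). Hsph1, an HSP110 chaperone, rose by 0.59, Dnajb9, an endoplasmic reticulum co-chaperone, by 0.49, and Chordc1, an HSP90 co-chaperone, by 0.39. Dnaja1, an HSP40 protein, and Hspa8, the constitutive HSP70, rose by 0.43 and 0.24, and their groups overlapped. Of 39 genes of the unfolded protein and integrated stress responses 2 rose and none fell, near the share of all genes (5.13% against 6.32%). The median was 0.08 (11 rises and 1 fall without those arrays). The rises were those of Dnajb9 and of Xbp1, a transcription factor of the endoplasmic reticulum, by 0.67 (SE 0.14, adjusted p = 0.0116). Of these calls, those of Dnajb9, Chordc1, Dnaja1, Hspa8 and Xbp1 ended in the 10-array fit and the first 4 of them also with ribosomal centring. Without control 33 the adjusted p of Hsph1 was 0.0506. Dnaja1 was also lost after another quantile normalisation, and both Dnaja1 and Hspa8 without the filter and in 8 of the 10 fits that left out 1 array (all but control 34 and, in turn, FGF21 36 or FGF21 37; adjusted p = 0.0816 to 0.114 and 0.0519 to 0.11).

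Secreted factors of fat changed in a few members. Among 26 adipokines and batokines 2 rose and 1 fell, with a median of 0.02 (4 and 7 without control 34 and FGF21 36). Beside Bmp8b and Angptl8, Cxcl14, a chemokine released by brown fat, rose by 0.99 (SE 0.27, adjusted p = 0.0415). Lep, the satiety hormone leptin, measured 11.64, 11.17, 11.44, 10.68 and 11.35 in controls 31 to 35 and 11.92, 8.06, 10.49, 9.23 and 10.09 in FGF21 36 to 40. Its difference was -1.30 (SE 0.55) and did not pass (adjusted p = 0.192); FGF21 36 was the highest of the 10 mice and the other treated mice were the lowest 4, and without FGF21 36 and control 34 the difference was -1.93 (adjusted p = 0.0136). Adipoq, adiponectin, differed by 0.05 (SE 0.05, adjusted p = 0.642). Of 16 cytochrome P450 genes 2 rose and none fell, with a median of 0.11 (2 and 2 without those arrays); Cyp2b10, a xenobiotic-inducible member, rose by 1.56 (SE 0.43, adjusted p = 0.0444) beside Cyp4b1, and ranged from 6.55 to 9.16 among treated mice. The calls of Cxcl14 and Cyp2b10 ended in the 10-array fit, without the filter, after another quantile normalisation, with ribosomal centring and with the mean of all probe sets. They also ended without control 31, 32 or 35 or FGF21 37, 38 or 40 for Cxcl14 (adjusted p = 0.0549 to 0.0943) and without control 31, 32, 33 or 34 or FGF21 38, 39 or 40 for Cyp2b10 (0.0512 to 0.11).

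Matrix genes rose in 6 of 54 tested cases and none fell, a share of 11.11% against 6.32% of all genes. Of the 54, 50 were positive and the median was 0.27. Without control 34 the median was 0.60 with 13 rises, without FGF21 36 it was 0.10 with 7, and without both 0.41 with 14. Thbs1, Sdc4 and Prg4 led, followed by Adamts1, a matrix protease, which went from 7.28, 7.36, 7.39, 8.03 and 7.28 to 8.68, 8.20, 8.48, 8.66 and 8.20 and rose by 0.97 (SE 0.17, adjusted p = 0.00346). Lamb1 and Col4a2, parts of the basement membrane, rose by 0.74 and 0.34. Control 34 was the highest control for all 3 of these genes. The mean level of the matrix list was 10.34 in control 34 and 8.70 to 9.14 in the other controls, and 10.32 in FGF21 36 and 8.95 to 9.70 in the other treated mice, so it was highest in the mice with the highest macrophage marker levels. With the macrophage marker mean as a covariate the median of the matrix list was -0.08 and 8 of its members were called, all upwards. The calls of Lamb1 and Col4a2 ended in the 10-array fit, and that of Col4a2 without control 31, 32, 33 or 35 or FGF21 36, 39 or 40 (adjusted p = 0.0659 to 0.0965).

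In BMP and TGF-beta signalling 3 of 34 genes rose and 3 fell, with a median of 0.00 (4 and 5 without control 34 and FGF21 36). Beside Bmp8b, Eng, the endothelial co-receptor endoglin, rose by 0.40 (SE 0.08, adjusted p = 0.00829) and Smad7, an inhibitor of TGF-beta signals, by 0.28. Smad6, the inhibitor of BMP signals, fell by 0.78 (SE 0.15, adjusted p = 0.00619), Id3, a BMP target, by 0.50, and Skil, a repressor of SMAD activity, by 0.54 (SE 0.08, adjusted p = 0.00111). Skil measured 10.50, 10.64, 10.35, 10.52 and 10.59 in controls and 9.82, 9.97, 10.00, 10.17 and 9.96 with FGF21. Its groups did not overlap. The calls of Eng, Smad6, Id3 and Smad7 ended with ribosomal centring and those of Eng and Smad7 in the 10-array fit; Smad7 was also lost without the filter, after another quantile normalisation and without control 31, 33 or 35 or FGF21 37, 38, 39 or 40 (adjusted p = 0.0629 to 0.1).

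Markers of other cell types were examined list by list. Of 24 macrophage markers none was called, and 22 were positive with a median of 0.55, which was 1.01 without control 34, 0.20 without FGF21 36 and 0.58 without both. Of 20 endothelial markers 2 rose (Eng and Sox17, an endothelial transcription factor, by 0.42) and Nos3, endothelial nitric oxide synthase, fell by 0.56; the median was 0.17, and 4 rose and 1 fell without control 34 and FGF21 36. Among 13 markers of pericytes and smooth muscle Mcam fell, with a median of -0.12, and 2 fell without control 34 and FGF21 36. The share called in the main fit (7.69%) is near the 6.32% of all genes. None was called among 14 markers of fibroblasts and progenitors (median 0.01), 26 of skeletal muscle (-0.77, and -1.83 without control 34 and FGF21 36), 8 of Schwann cells and nerve (-0.15), 8 of white adipocytes (0.26), 11 of T, B and NK cells (-0.11) and 3 of erythroid cells (-0.06). The fibroblast and progenitor median was 0.33 without control 34, where 1 marker rose, 0.19 without FGF21 36 as well and -0.31 with the macrophage covariate. Without both arrays the white adipocyte median was -0.01, with 1 rise and 1 fall, and 1 macrophage marker rose. One fall each was then called among Schwann cell, lymphocyte, erythroid and cell cycle genes, and without control 34 alone 3 Schwann cell markers fell. The median of the neutrophil and mast cell markers was 0.11. No call was made either among 43 cytosolic ribosomal protein genes (median -0.02), 34 of the cell cycle (0.12) and 34 of the interferon response and antigen presentation (-0.08). Of the lists in this paragraph without a call, an unadjusted p under 0.05 in limma was reached by 3 cell cycle genes, 3 white adipocyte markers, 2 Schwann cell markers, 1 lymphocyte marker and 1 erythroid marker, and by 0 genes of the others. The part of cell composition in the changes above was not tested beyond the fit with the macrophage covariate. The calls of Sox17 and Nos3 ended in the 10-array fit and with ribosomal centring, and that of Sox17 without control 31, 32 or 35 or FGF21 37 or 39 (adjusted p = 0.075 to 0.085).

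In the direct comparison of the antibody with FGF21, 49 of the 13174 genes (0.372%) differed, 35 of them among the 833 genes (4.2%). The 833 were chosen with the same FGF21 arrays, so the share among them is a description. Thbs1 stood at 8.13 ± 0.61 (SD, n = 5) with FGF21, at 5.52 ± 0.22 (SD, n = 5) with the antibody and at 5.32 ± 0.26 (SD, n = 5) in controls, and the antibody mean was lower than the FGF21 mean by 2.61 on the log2 scale (adjusted p = 0.000215). Crip2 was at 11.51 ± 0.38 (SD, n = 5) with FGF21 and 10.18 ± 0.14 (SD, n = 5) with the antibody, a difference of -1.34 (adjusted p = 0.00646). Net1 (-1.22, adjusted p = 0.0121), Dusp4 (-0.96, adjusted p = 0.0068) and Sdc4 (-0.53, adjusted p = 0.04) were also lower with the antibody, and Akap1 was higher (0.52, adjusted p = 0.0265). For Sgk2 the difference was 0.42 (adjusted p = 0.559), for Pla2g2e -0.08 (adjusted p = 0.778) and for Elovl3 0.50 (adjusted p = 0.361), which does not show that the agents act alike. The 2 agents differed in dose and in the number of injections, and these cannot be told apart from the agent.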

How the data were processed

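Total RNA of interscapular brown fat was measured on 15 arrays, 5 per group. The deposited table of the authors holds linear, normalised intensities, 1 for each probe set on each array. Per the submitters' processing notes these intensities came from RMA, which corrects background, quantile-normalises and summarises probe sets; its version and the chip definition are not given in the sources used here. These were converted to log2 and not normalised again. Precision is limited by how many arrays there are; the median SE of a change was 0.1.

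Of 45101 probe sets, 34958 carried 1 symbol in GEO's platform annotation, 932 several and 9211 were unnamed here; 34754 matched RefSeq (GRCm38.p6) by Entrez ID. For each of 18194 genes the single-symbol probe set of highest mean in the 15 arrays was used. Genes whose mean exceeded 5.06, the 40th percentile of all probe sets, were tested (13174). R 4.3.3 and limma 3.58.1 (lmFit, eBayes) fitted the 3 groups together, so all 15 arrays share 1 estimate of spread with 12 residual degrees of freedom; tests were two-sided at a Benjamini-Hochberg threshold of 0.05. The fit was tested on simulated data. No 2 arrays shared more than 1.486% of their values.

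Named were the 15 largest rises and falls among called genes without overlap, the 5 smallest p, up to 6 called members per list by p, all members of lists with up to 12 tested genes (described together where uncalled), and a set of genes of the FGF21 and brown fat literature; predicted genes with clone-like symbols (40 of the calls) were counted. The 45 lists (1009 genes tested; 34 pathway and 11 marker lists) and the members were chosen with earlier results of these data known. Lists are described by counts and medians, without a test.

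Of 118 named called genes, 53 had another probe set above the filter, and for 23 at least 1 of these was not called: Dlc1, Prdm16, Mt1, Gab1, Spred2, Fosl2, Rgs2, Thrsp, Acaca, Fdft1, Plin5, Cpt1a, Pex2, Slc16a1, Hk1, Ak4, Per2, Hspa8, Dnaja1, Xbp1, Cxcl14, Cyp2b10 and Sox17. In Fosl2 (-0.14) and Ak4 (-0.06) another probe set changed in the opposite direction to the rise.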

Additional observations from a re-analysis of the deposited data

Results flagged for a closer look

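Within each group of 5 mice, a mouse whose distance to the nearest of the others took up an unusually large share of the group's range was marked by Dixon's test. It marked 26 of the 276 groups examined (9.42%), where chance marks about 1 in 20. Control 34 accounts for 15 of the marks. It was the highest control for Net1 (6.36), Etv5 (6.35), Cpt1a (8.83), Adamts1 (8.03), Lamb1 (11.02), Col4a2 (11.70) and the mean of the fibroblast and progenitor markers (10.74). It was the lowest control for Elovl3 (9.54), Rasd1 (8.94), Pnpla3 (8.77), Phlda3 (11.77), Lpin1 (12.35), Plin5 (12.06), Rhoq (12.65) and Bcat2 (6.68). FGF21 36 was the lowest treated mouse for Dusp4 (9.96), Ucp1 (14.55), Ppara (10.48) and Ciart (6.82) and the highest for Cpt1a (9.07). The remaining marks were FGF21 38 for Fgf21 (6.54), FGF21 39 for Thra (9.05) and Irs2 (8.90), FGF21 37 for Acot1 (7.39), and control 31 for Fosl1 (5.78) and Irs2 (6.64), the latter 2 being the lowest of their group and the others the highest.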

How the results depend on the processing

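The count of 833 calls (348 up, 485 down) moved with the processing. Fitting the 10 compared arrays alone gave 322 (148 up, 174 down), ribosomal centring 199 (131 up, 68 down), array weights 2855 (1153 up, 1702 down), and the macrophage marker mean as a covariate 1336 (600 up, 736 down). Leaving out 1 array at a time gave 463 to 2097 calls, 213 to 817 up and 246 to 1280 down, and leaving out control 34 and FGF21 36 together gave 2138 (892 up, 1246 down). The other settings, with no filter, a filter at the 60th percentile, another quantile normalisation, an offset of 32 and the mean of all probe sets, gave 706, 894, 744, 872 and 784. The cause of these moves was not tested. Ribosomal centring kept 181 of the 833 calls (21.7%). Of 118 named called genes, 51 kept their call in every setting. Among the 127 named genes examined, signs turned in 4 fits, all of uncalled genes: Fgf21 (0.05) was -0.09 with array weights, and, leaving out 1 array at a time, -0.15 (FGF21 38) to 0.15 (FGF21 36), with -0.05 without control 34, and Fgfr1 (-0.07) was 0.01 with the mean of all probe sets. No paired analysis was possible because the replicate numbers do not repeat between the groups. Probe sets close to the filter are near background, and their changes are limited by it. Ucp1, Fasn and Adipoq ranked 8, 33 and 41 by mean level, and whether signal saturation limited their changes was not tested.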

Other observations

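Several changes lay outside the gene lists; the genes here were chosen after their values were seen. Among rises, the intracellular calcium-binding protein S100g rose by 1.43 (SE 0.14, adjusted p = 7.17e-05), the sodium, potassium and chloride cotransporter Slc12a2 by 1.36 (SE 0.21, adjusted p = 0.00186), the long-chain fatty acid receptor Ffar4 by 1.25 (SE 0.21, adjusted p = 0.00314), the secreted protein Mfge8, which bridges dying cells to phagocytes, by 1.12 (SE 0.16, adjusted p = 0.000995) and the aspartate aminotransferase Got1 by 0.99 (SE 0.13, adjusted p = 0.000868). Of the AMP-activated kinase subunits, Prkaa1 rose by 0.61 (SE 0.11, adjusted p = 0.0043) and Prkag2 fell by 0.76 (SE 0.12, adjusted p = 0.00221). Among falls, the mineralocorticoid receptor gene Nr3c2 fell by 0.80 (SE 0.13, adjusted p = 0.00252), Alas1, the first enzyme of haem synthesis, by 0.77 (SE 0.14, adjusted p = 0.00469), the transcription factor Klf10 by 0.88 (SE 0.14, adjusted p = 0.00189) and Zfp423, a transcription factor of white fat identity, by 0.60 (SE 0.09, adjusted p = 0.00144). All 11 calls held in every setting in which the gene could be fitted. In the direct comparison with the antibody, S100g (-1.01, adjusted p = 0.0089) and Mfge8 (-0.88, adjusted p = 0.0278) were lower with the antibody and Zfp423 was higher (0.46, adjusted p = 0.0438).

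A list of 36 genes known to be induced by low oxygen was written after the values of Egln3 and Slc2a1 were seen, so its counts are a description. Of 32 tested, 7 rose and none fell, where 6.32% of all genes were called and 2.64% rose. Egln3 and Slc2a1, whose values prompted the list, are among the 7. The median was 0.12 against -0.02 over all genes. The rises were Egln3, Ak4 and Slc2a1, described above, Ankrd37 by 0.98 (SE 0.21, adjusted p = 0.0125), the collagen prolyl hydroxylase subunit P4ha1 by 0.90 (SE 0.17, adjusted p = 0.00707), the mitophagy receptor Bnip3 by 0.61 (SE 0.11, adjusted p = 0.00634) and the histone demethylase Kdm3a by 0.56 (SE 0.12, adjusted p = 0.0139). The control mean of Ankrd37 (4.76) lay under the filter of 5.06. It was tested only because its means with FGF21 (5.74) and the antibody (5.6) were higher, so its call adds no support. All 7 held in each fit that left out 1 array, and 4 with ribosomal centring. That centring ended the calls of Ankrd37, Bnip3 and Kdm3a (adjusted p = 0.0561, 0.126 and 0.0679), and the call of Kdm3a held in 18 of the 20 settings. Without control 34 and FGF21 36, 13 members were called, and 11 with the macrophage marker mean as a covariate. Over all genes these 2 fits called 2138 and 1336. Vegfa, the vascular growth factor of this list, differed by 0.28 (SE 0.17, adjusted p = 0.381).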
